A study of Mus musculus with 27 samples.

Results

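The 7 mesendoderm transcription factors *Eomes*, *Mixl1*, *Evx1*, *Gsc*, *Foxa2*, *Sox17* and *Hhex* were followed by RNA-seq in mouse cells taken from embryonic stem cells (ESCs) toward the gonad. They were chosen by name as primitive streak and endoderm factors and found by symbol among the 48795 genes in the files, and all 7 were among the 20839 genes with enough reads to be tested. There were 27 libraries in 9 groups of 3. The starting cells were XY mouse ESCs carrying the TESCO-CFP reporter, in which a *Sox9* enhancer drives a cyan fluorescent protein, and the R26-rtTA allele, which makes a doxycycline-dependent activator. Most of the work on this line was done with 1 clone, and the sample titles name neither a clone nor a second genetic background. The study calls its replicates biological, and no source used here says whether the triplicates came from separate cultures. P-values measure the spread between these samples, part of which may be technical.

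ESCs were kept in 2i/LIF medium with 3 μM CHIR99021, an activator of WNT signaling. EpiSC denotes epiblast-like cells after 60 hours in 12 ng/ml bFGF and 20 ng/ml Activin A, a ligand that uses the same receptors as Nodal. M denotes early mesoderm after a further 36 hours in 20 ng/ml bFGF, 10 ng/ml BMP4 and 10 μM of the PI3-kinase inhibitor LY294002, without Activin A. IM1 to IM5 denote 5 intermediate mesoderm cultures of 3.5 days, all in 5 ng/ml bFGF and 20 ng/ml BMP4. IM1 had nothing more, IM3 had 100 nM retinoic acid (RA), IM2 had RA and 10 ng/ml Activin A, IM4 had RA and 0.3 μM CHIR99021, and IM5 had all 3. iSLC denotes induced Sertoli-like cells, made from IM3 cells by lentiviral *Nr5a1* and *Dmrt1* switched on with doxycycline, cultured for 4 days in a medium that held 50 ng/ml Activin A along with EGF, FSH, FGF9, prostaglandin D2 and testosterone, and sorted for CFP. The sort and the medium both differ between iSLCs and IM3.

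The labels were read against marker genes on the TPM scale (transcript abundance scaled to a fixed total per library). *Pou5f1* stood at 1608 TPM in ESC and 1670 TPM in EpiSC, *Fgf5*, a gene of the epiblast, at 3.34 and 119 TPM, and *T*, *Mesp1*, *Tbx6* and *Msgn1* were highest in M, at 502, 86.6, 29 and 64.4 TPM. *Pax2*, a marker of the nephric intermediate mesoderm, stayed at 0.22 TPM or less in all 5 IM groups, while *Wt1* reached 149 TPM in IM3. *Osr1* stood at 3.49, 4.09, 1.11, 0.98 and 4.74 TPM in IM1 to IM5 against 0.2 TPM in M. *Lhx1* was at 56.5 TPM in M and at 3.44 TPM or less in the IM groups. *Nr5a1* and *Dmrt1*, both forced by lentivirus, stood at 93.8 and 213 TPM in iSLC against 0.09 and 0.45 TPM in IM3. *Amh*, a product of fetal Sertoli cells, was at 0.56 TPM in iSLC and 0.44 TPM in IM3. *Sox9* was lower in iSLC, at 24.8 TPM, than in IM3, at 40 TPM. Library totals ran from 35923040 to 84876603 estimated counts. The libraries fell on 2 sides: red blood cell genes summed to 4.02 to 27.5 CPM (counts scaled to library size) in all 12 ESC, M, IM3 and IM4 libraries, and to 0.373 to 1.38 CPM in the other 15, and the median log2 deviation of GC-rich minus GC-poor genes was lower on the first side (-0.389 to -0.068) than on the other (-0.077 to 0.454), with an overlap.

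Mesendoderm is the tissue of the primitive streak from which both mesoderm and definitive endoderm arise. Nodal or Activin acts through SMAD2 and SMAD3 with partners such as FOXH1, and in the embryo a high dose favors the anterior streak, node and endoderm, while WNT and BMP favor posterior streak and mesoderm. *Eomes* (a T-box factor) and *Mixl1* (a paired-type homeobox factor) act in the streak as mesoderm and endoderm are laid down, and *Evx1* (an even-skipped homeobox factor) marks the posterior streak. *Gsc* (Goosecoid) and *Foxa2* mark the anterior streak and the organizer, and *Foxa2* goes on in endoderm and notochord. *Sox17* and *Hhex* serve in definitive and extraembryonic endoderm, and both are also expressed in endothelial and hemogenic cells.

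The 7 genes lie on 6 chromosomes of GRCm38. *Eomes* (ENSMUSG00000032446) is at chr9:118478212-118486132 on the plus strand, *Evx1* (ENSMUSG00000005503) at chr6:52313498-52318378 on the plus strand and *Hhex* (ENSMUSG00000024986) at chr19:37434810-37440731 on the plus strand. *Gsc* (ENSMUSG00000021095) is at chr12:104471209-104473330, *Foxa2* (ENSMUSG00000037025) at chr2:148042877-148046969, *Mixl1* (ENSMUSG00000026497) at chr1:180693043-180697034 and *Sox17* (ENSMUSG00000025902) at chr1:4490931-4497354, all on the minus strand. Exons of a gene on the opposite strand overlap 2.84% of the exon bases of *Eomes* (*Gm33460*), 16.8% of those of *Sox17* (*Gm37587*) and 2.54% of those of *Evx1* (*Evx1os*), and reads there cannot be assigned by strand where a kit does not mark it. *Gm33460* and *Gm37587* never exceeded 8.46 and 15 estimated counts in a library.

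Sequences upstream of the annotated starts of *Eomes*, *Gsc* and *Evx1* are shown because these 3 genes had the largest change under Activin A, in iSLC and under RA. They are from RefSeq on GRCm38.p6, each written 5′ to 3′ along its gene's strand. The *Eomes* bases are chr9:118477939-118478188, the *Gsc* bases are chr12:104473331-104473486 (minus strand) and the *Evx1* bases are chr6:52313248-52313497. The *Gsc* stretch leaves out the 94 bases before the RefSeq start that lie inside the longer GENCODE gene, so it ends upstream of both annotated starts. Capitals mark matches to the letters searched below.
Eomes: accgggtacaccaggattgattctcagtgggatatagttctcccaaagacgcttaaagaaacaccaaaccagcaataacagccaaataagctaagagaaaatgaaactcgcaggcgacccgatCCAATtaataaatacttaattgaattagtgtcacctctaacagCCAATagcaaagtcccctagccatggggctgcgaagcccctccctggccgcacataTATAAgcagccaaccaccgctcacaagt
Gsc: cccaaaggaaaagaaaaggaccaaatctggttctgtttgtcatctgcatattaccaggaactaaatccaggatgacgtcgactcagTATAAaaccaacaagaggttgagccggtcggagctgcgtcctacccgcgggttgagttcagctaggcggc
Evx1: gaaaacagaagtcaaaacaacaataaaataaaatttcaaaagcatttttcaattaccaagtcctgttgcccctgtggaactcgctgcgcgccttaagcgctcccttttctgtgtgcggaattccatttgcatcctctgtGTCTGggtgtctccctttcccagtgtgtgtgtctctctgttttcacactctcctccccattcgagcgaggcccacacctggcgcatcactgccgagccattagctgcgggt

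Among the 7 genes, 5 had a RefSeq promoter entry, and in each the 250 bases before the start were searched on both strands, counting the RefSeq start base as 0. The letters AATCCACA (FOXH1), AGGTGTGA (a T-box half-site) and AGGTCA (a nuclear receptor half-site, the unit of RA response elements) had no match in these 5 windows. Their shares over all 32536 promoter windows of this length were 0.713%, 1.12% and 14%. The SMAD half-site CAGAC occurred in 1 of the 5 windows, that of *Evx1*, as its reverse complement at -111, and in 42.2% of all windows. *Eomes* had the letters CCAAT at -127 and -84 and TATAA at -28, and *Gsc* had TATAA at -164. CCAAT also matched as its reverse complement in *Foxa2* at -68 and *Hhex* at -119, so 3 of the 5 windows held it against 33.8% of all windows, and TATAA was in 2 of the 5 against 22.7%. These letters do not overlap one another, and a match is a description of the sequence only. The *Evx1* window is shared with another transcript: *Evx1os*, an antisense RNA at chr6:52308389-52314832 on the minus strand, has an annotated start 7 bases inside *Evx1* from which it is transcribed away from *Evx1* across the printed bases, and another start 1334 bases inside.

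*Eomes* ran over the widest range of the streak factors in the IM cultures. It stood at 4.29, 4.49 and 4.82 TPM in ESC, at 94.6, 95.1 and 95.7 TPM in EpiSC and at 146, 165 and 165 TPM in M. In the cultures without Activin A it was at 1.81, 1.88 and 2.53 TPM in IM1, at 0.41, 0.49 and 0.56 TPM in IM3 and at 0.47, 0.53 and 0.55 TPM in IM4. The 3 IM2 libraries had 17.6, 18.4 and 18.5 TPM, the 3 IM5 libraries 14.6, 15.1 and 15.3 TPM, and iSLC 0.19, 0.2 and 0.55 TPM. Ordered from M through EpiSC, IM2, IM5, ESC, IM1 and IM4, neighboring groups did not overlap, whereas IM4, IM3 and iSLC overlapped at the bottom.

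*Mixl1* was high in EpiSC and M and low elsewhere. It had 38.9, 41 and 41.6 TPM in EpiSC and 194, 195 and 220.25 TPM in M, where it was the most abundant of the 7. It was at 2.81, 2.86 and 3.45 TPM in IM2 and at 2.97, 3.13 and 3.25 TPM in IM5, and these groups overlapped. The other 15 libraries had between 0.18 and 0.9 TPM.

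*Evx1* followed the same rise and then parted from *Eomes* and *Mixl1* in IM1. Its levels were 0.19, 0.29 and 0.36 TPM in ESC, 13.8, 15.1 and 15.2 TPM in EpiSC and 53.4, 54.1 and 56.6 TPM in M. In IM1 it kept 8.48, 9.34 and 9.64 TPM, more than in IM5 (5.39, 5.65 and 5.93 TPM) and IM2 (3.12, 3.48 and 3.54 TPM). IM3 and IM4 held between 0.77 and 1.11 TPM and overlapped, and iSLC had 0.26 to 0.48 TPM, overlapping ESC. The ratio of *Evx1* to *Eomes* was therefore 3.81 to 5.16 in the IM1 libraries against 0.169 to 0.197 in IM2.

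*Gsc* was the 1 factor of the 7 whose iSLC libraries all lay above the M libraries. In EpiSC it stood at 19.7, 21.8 and 22.5 TPM, in M at 2.97, 3.98 and 4.3 TPM and in iSLC at 6.57, 6.96 and 7.03 TPM, with no overlap among these groups. All 15 IM libraries were at 0.78 TPM or less. Counts there were small: the 3 IM3 libraries had 2, 2 and 1 estimated counts and the IM4 libraries 2, 6 and 6, against 291, 263 and 272 in iSLC.

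*Foxa2* had 1 high group. It was at 28.1, 29.5 and 33.2 TPM in EpiSC, and no other library exceeded 7.39 TPM. IM2, IM5 and IM1 overlapped at 5.6 to 7.39 TPM, ESC had 5.12, 5.23 and 6.17 TPM, M and IM4 overlapped between 3.32 and 4.3 TPM, IM3 had 2.9 to 3.14 TPM and iSLC 1.14 to 1.29 TPM.

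*Sox17* and *Hhex* were highest in IM1 rather than in EpiSC or M. *Sox17* was at 22.1, 24 and 26.2 TPM in IM1, at 16.1, 17.2 and 18.4 TPM in IM5 and at 10.4, 12.6 and 13.8 TPM in IM2, with no overlap. It was lower in EpiSC (8.48, 8.72 and 9.18 TPM), M (5.82, 6.55 and 7.48 TPM), IM4 (4.1, 4.61 and 5.5 TPM) and IM3 (3.37, 3.79 and 4.38 TPM), and lowest in iSLC (1.25, 1.94 and 2.56 TPM) and ESC (0.84, 1.01 and 1.39 TPM), which overlapped. *Hhex* moved over the smallest range of the 7: IM1 (11.7, 13.6 and 13.7 TPM) and IM2 (10.8, 11.2 and 11.8 TPM) overlapped at the top, IM5 had 8.88 to 10.8 TPM, IM3 and IM4 overlapped between 5.87 and 7.85 TPM, and EpiSC, ESC, iSLC and M all lay between 3.95 and 5.99 TPM.

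**Figure D1:**
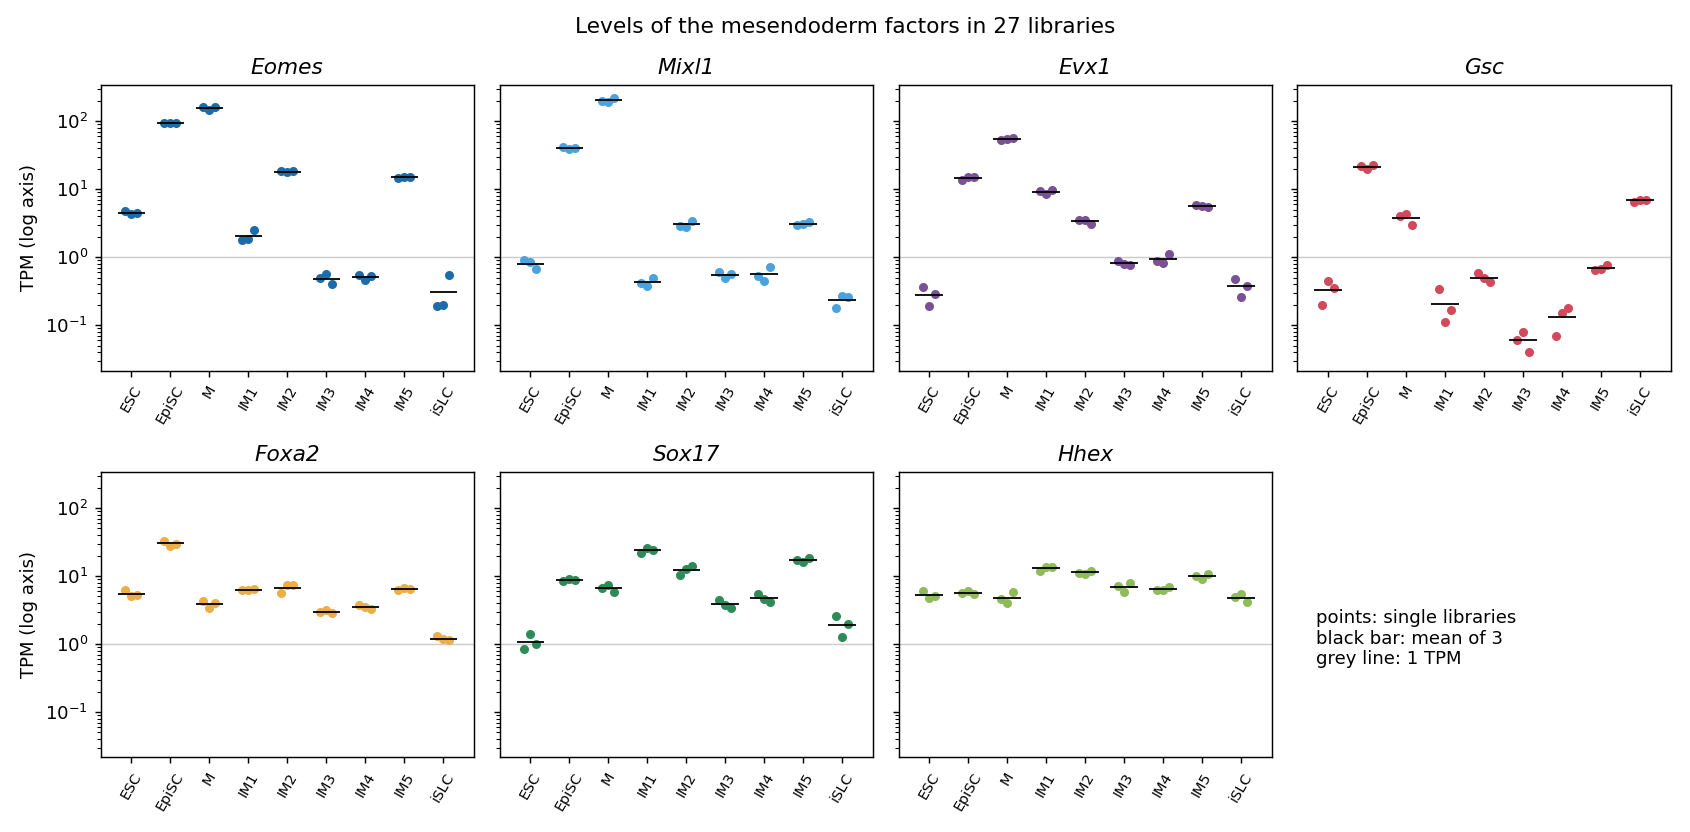
TPM of each factor (log axis) in the 3 libraries of each of 9 groups, with points for libraries and black bars for means. *Eomes*, *Mixl1* and *Evx1* peak in M, *Gsc* and *Foxa2* in EpiSC, *Sox17* and *Hhex* in IM1, and *Gsc* has a separate high group in iSLC at 6.57 to 7.03 TPM.

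Changes were tested with edgeR's quasi-likelihood model over all 27 libraries, and p-values were adjusted over 20839 genes. A gene was called where the adjusted p was at most 0.01, the change at least 2-fold, and the mean normalized count at least 100 both over all libraries and in 1 of the compared groups. Several comparisons share a group (M is the reference of 3 and IM3 enters 5 of the pairwise ones), so their values are given side by side only. In bulk RNA, fewer cells expressing a gene and less RNA per cell cannot be told apart.

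From ESC to EpiSC, 6 of the 7 factors rose and none fell, in a comparison that called 8.07% of all genes. *Evx1*, *Gsc* and *Mixl1* gained the most: 65.6-fold (log2 6.04, SE 0.11, adjusted p = 1.39e-23), 62.3-fold (log2 5.96, SE 0.22, adjusted p = 3.79e-18) and 51.8-fold (log2 5.70, SE 0.098, adjusted p = 5.55e-24). *Eomes* rose 21-fold, *Sox17* 7.41-fold and *Foxa2* 5.6-fold. *Hhex* had a log2 change of 0.31 (95% interval 0.07 to 0.55) and was not called. The median log2 change was 4.39 over the 7 against -0.003 over all genes. Of 20 other streak and nascent mesoderm genes 6 were called higher and 3 lower, with *Lhx1* at 7.35, *T* (Brachyury) at 6.60, *Fgf8* at 6.04 and *Sp5* at 5.40 on the log2 scale; of 19 Nodal and Activin pathway genes 4 were called higher, among them *Cfc1* (3.24), a Nodal coreceptor, and *Cer1*, an inhibitor made by anterior endoderm (0.06 and 22.4 TPM).

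From EpiSC to M, the posterior and anterior factors parted. *Mixl1* rose 4.77-fold (log2 2.25, SE 0.066) and *Evx1* 3.6-fold (log2 1.85, SE 0.068), while *Foxa2* fell 8.22-fold (log2 -3.04, SE 0.095) and *Gsc* 6.02-fold (log2 -2.59, SE 0.16), so 4 of the 7 were called where 14.5% of all genes were. *Eomes* was at log2 0.67 (95% interval 0.49 to 0.85, adjusted p = 1.66e-07), below the 2-fold minimum. *Sox17* was at -0.35 and *Hhex* at -0.46, neither called. The ratio of *Mixl1* to *Eomes* went from 0.406 to 0.44 in EpiSC to 1.19 to 1.34 in M. Other streak genes were called higher in 11 of 20 cases, among them *Foxf1* (log2 7.41), *Kdr* (7.00) and *Msgn1* (5.87), and lower in 4. Nodal and Activin pathway genes were lower in 9 of 19 and higher in 3: *Lefty1*, a feedback inhibitor of Nodal, was at -6.48, *Cer1* at -6.38, and *Nodal* itself at -2.51. Among 7 node and notochord genes 3 fell, including *Foxj1* (-4.81) and *Chrd* (-2.87), and 2 rose, *Nog* (1.61) and *T* (1.05).

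From M to the IM cultures the streak factors fell. Against M, *Mixl1* was 504-fold lower in IM1 (log2 -8.98, SE 0.1), 74.5-fold lower in IM2 (log2 -6.22, SE 0.084) and 411-fold lower in IM3 (log2 -8.68, SE 0.11). *Eomes* was 82.2-fold lower in IM1, 9.76-fold lower in IM2 and 375-fold lower in IM3. *Evx1* was 6.5-fold lower in IM1, 18.7-fold lower in IM2 and 75-fold lower in IM3. *Gsc* fell as well (log2 -4.30 in IM1, -3.03 in IM2 and -6.09 in IM3); summed over libraries its M level was 71.3 times that of IM3 (419 against 5 counts, 95% interval 30.3 to 221, counting error only). The 3 calls on *Gsc* were lost when only the 2 compared groups were fitted, since its mean count then missed the minimum of 100.

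*Sox17* and *Hhex* ran the other way in IM1. *Sox17* rose 3.23-fold (log2 1.69, SE 0.13) and *Hhex* 2.81-fold (log2 1.49, SE 0.11) from M to IM1, and *Hhex* 2.33-fold to IM2. Neither was called from M to IM3, where *Sox17* was at log2 -0.85 and *Hhex* at 0.39. *Foxa2* was at 0.57, 0.65 and -0.57 in IM1, IM2 and IM3, in each case below 2-fold. In all, 6, 5 and 4 of the 7 were called for IM1, IM2 and IM3, where 15.7%, 16.5% and 14.9% of all genes were. M, the common reference, and IM3 lie on the same side of the red blood cell partition; IM1 and IM2 lie on the other.

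More genes of endothelial and hemogenic cells were called higher than lower against M in IM1, IM2 and IM3, although *Sox17* (log2 -0.85) and *Hhex* (0.39) were not called in IM3. In IM1, 10 of 14 were called higher than in M and none lower, against 12 higher and 1 lower in IM2 and 11 higher and 1 lower in IM3. The IM1 calls were led by genes such as *Tek* (log2 7.48), *Sox18* (7.33) and *Cdh5* (7.20), and *Tie1* and *Erg*, which had 4 counts or fewer in each M library. The summed TPM of the 14 was 65 to 79 in the M libraries, 262 to 282 in IM1, 190 to 205 in IM2, 123 to 141 in IM3, 132 to 144 in IM4 and 183 to 202 in IM5, with none of the 14 at 0 in any group. *Kdr* alone had 58.4 TPM in M and 38.4 TPM in IM1, against the direction of the sum. Visceral and primitive endoderm genes also rose, with 12 of 14 called higher in IM1 and 11 of 14 in both IM2 and IM3. Among those called in IM1 were *Apoa1* (8.38) and *Afp* (0.07 TPM in M and 49.5 TPM in IM1). Of 15 definitive endoderm genes, 2 were called higher and 4 lower in IM1, 1 and 5 in IM2, and 3 and 7 in IM3. The part of these cell types in the change of *Sox17* and *Hhex* was not tested.

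**Figure D2:**
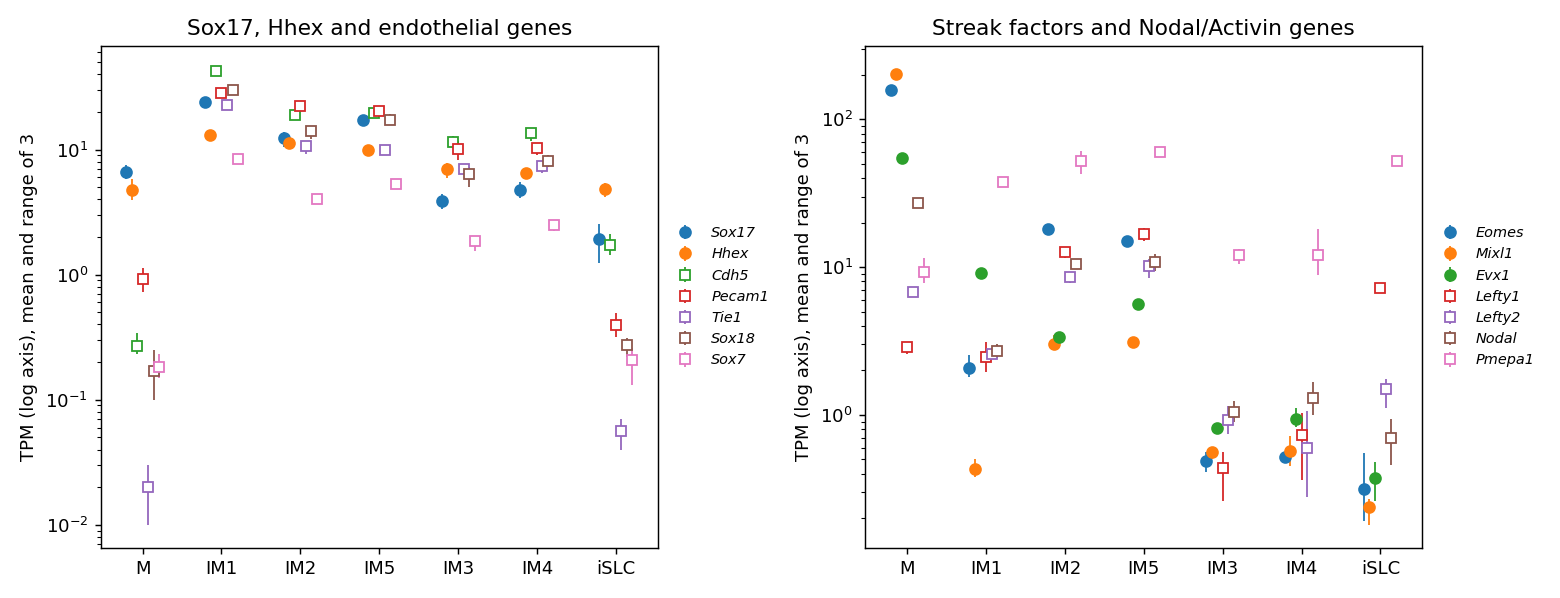
Group mean TPM (log axis) with the range of 3 libraries, from M through the IM cultures to iSLC; filled circles are the factors and open squares other genes. Left, *Sox17* and *Hhex* beside *Cdh5*, *Pecam1*, *Tie1*, *Sox18* and *Sox7*, all highest in IM1 among the groups shown. Other endothelial and hemogenic genes, not drawn, peaked elsewhere, such as *Tek* in IM4 (30.6 against 17.8 TPM in IM1) and *Runx1* in IM2 (42.3 against 18.3 TPM). Right, *Eomes*, *Mixl1* and *Evx1* beside Nodal pathway genes, with *Lefty1*, *Lefty2* and *Nodal* higher in IM2 and IM5 than in IM3 and IM4.

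IM3 against IM1 asks what RA did in bFGF and BMP4 alone. With RA, 5 of the 7 factors were lower and none higher, where 6.34% of all genes were called. *Evx1* fell 11.5-fold (log2 -3.53, SE 0.098, adjusted p = 4.02e-20), *Sox17* 5.83-fold (log2 -2.54, SE 0.14) and *Eomes* 4.56-fold (log2 -2.19, SE 0.18). *Foxa2* and *Hhex* fell 2.21-fold and 2.15-fold, and these 2 calls were lost with an offset for GC content (*Foxa2* at log2 -0.88) and for effective length (*Hhex* just under 2-fold). *Mixl1* was at 0.29 (95% interval -0.10 to 0.69) and was not called. *Gsc* was at -1.78 and, at 29 against 5 counts in all, had a ratio of 3.57 (95% interval 1.37 to 11.8, counting error only) in favor of IM1. Caudal and streak genes moved with them: 8 of 20 were called lower and 1 higher, with *T* at -4.86, *Cdx2* at -4.45 and *Lhx1* at -2.98 and *Pdgfra* at 2.10. Of 14 endothelial and hemogenic genes 9 were lower, including *Sox18* (-2.34), *Sox7* (-2.25) and *Cdh5* (-1.97).

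Adding Activin A to RA raised *Eomes*, *Mixl1* and *Evx1*. IM2 against IM3 called 5 of the 7 higher and none lower, where 3.8% of all genes were called. *Eomes* rose 38.4-fold (log2 5.26, SE 0.15, adjusted p = 1.32e-18), *Mixl1* 5.51-fold (log2 2.46, SE 0.14) and *Evx1* 4.02-fold (log2 2.01, SE 0.11). *Sox17* rose 2.91-fold and *Foxa2* 2.33-fold. *Gsc* was at log2 3.05 but under the count minimum, with 57 against 5 counts and a ratio of 8.71 (95% interval 3.52 to 27.8, counting error only), and *Hhex* was at 0.84, under 2-fold.

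With CHIR99021 in both cultures, *Eomes* again rose the most. IM5 against IM4 called 4 of the 7 higher, where 4.09% of all genes were called: *Eomes* 30-fold (log2 4.91, SE 0.14, adjusted p = 1.16e-18), *Evx1* 6.61-fold (log2 2.72, SE 0.096), *Mixl1* 5.74-fold (log2 2.52, SE 0.13) and *Sox17* 3.72-fold (SE 0.14 on the log2 scale). *Foxa2* was at 0.91 and *Hhex* at 0.80, under 2-fold, and *Gsc* had 89 against 14 counts, a ratio of 5.35 (95% interval 3.03 to 10.2, counting error only). The difference between the 2 Activin A effects called none of the 7 and 0.0336% of all genes, while 2 of the 7 (*Evx1* and *Foxa2*) and 2191 genes had an unadjusted p under 0.05, and DESeq2 also called none of the 7.

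Nodal feedback genes rose beside the factors. In IM2 against IM3, 6 of 19 Nodal and Activin pathway genes were called higher and none lower, with *Lefty1* at log2 5.18, *Lefty2* at 3.80, *Nodal* at 3.33 and *Pmepa1*, a SMAD target that dampens the pathway, at 2.17. In IM5 against IM4 the counts were again 6 and 0, with *Lefty1* at 4.90, *Lefty2* at 4.09 and *Nodal* at 3.12. Among 20 other streak genes, 9 and 8 were called higher in the 2 comparisons, with *T* at 3.46 and 3.10 and *Sp5* at 3.31 and 2.91. None was called lower in the first and 1 in the second, *Pdgfra* (-1.17). Definitive endoderm genes were called higher in 4 and 3 of 15 cases and lower in none, led by *Trh* (2.52 and 2.59) and *Cxcr4* (2.22 and 2.67). Both leading genes were higher at earlier stages. *Trh* had 507 TPM in ESC and 691 TPM in EpiSC against 12.7 TPM in IM2, and *Cxcr4* had 40.5 TPM in M against 9.95 TPM in IM2. Endothelial and hemogenic genes were called higher in 5 and 7 of 14 cases. None of these was called lower in IM2 against IM3 and 1 in IM5 against IM4, *Tek* (-1.35).

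These RA and Activin A comparisons each set IM3 or IM4 against libraries from the other side of the red blood cell partition. EpiSC against ESC, M against EpiSC and iSLC against IM3 also cross it. The part of the partition in any of these changes was not tested. IM1 and IM2 lie on the same side and differ by RA and Activin A together. *Eomes* had 1.81 to 2.53 TPM in IM1 and 17.6 to 18.5 TPM in IM2, and *Mixl1* 0.38 to 0.5 against 2.81 to 3.45 TPM. *Evx1* ran the other way, at 8.48 to 9.64 against 3.12 to 3.54 TPM, and so did *Sox17*, at 22.1 to 26.2 against 10.4 to 13.8 TPM. The level of *Eomes* under Activin A in IM2 was still 9.76-fold under that of M.

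CHIR99021 at 0.3 μM moved none of the 7 past the threshold. In IM4 against IM3, where 0.101% of all genes were called, the log2 changes lay between -0.09 for *Hhex* and 0.27 for *Foxa2*, apart from *Gsc* at 1.18 (95% interval -0.18 to 2.53) on 14 against 5 counts. The 95% intervals were -0.36 to 0.64 for *Eomes*, -0.36 to 0.43 for *Mixl1* and -0.15 to 0.38 for *Evx1*. At an unadjusted p under 0.05 there were 1 of the 7 (*Foxa2*) and 2517 genes, and DESeq2 called none of the 7.

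With Activin A present, CHIR99021 again called none (IM5 against IM2, 0.235% of all genes called, and none of the 7 by DESeq2). *Evx1* was 1.78-fold higher (log2 0.83, 95% interval 0.67 to 0.99, adjusted p = 9.36e-08) and *Sox17* 1.44-fold higher (log2 0.53, 95% interval 0.26 to 0.79, adjusted p = 0.00915), both under the 2-fold minimum. The 3 IM5 libraries lay above the 3 IM2 libraries for both genes. *Eomes* was at -0.22 (95% interval -0.41 to -0.03, adjusted p = 0.16). At an unadjusted p under 0.05 there were 3 of the 7 (*Evx1*, *Sox17* and *Eomes*) and 4586 genes.

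**Figure D3:**
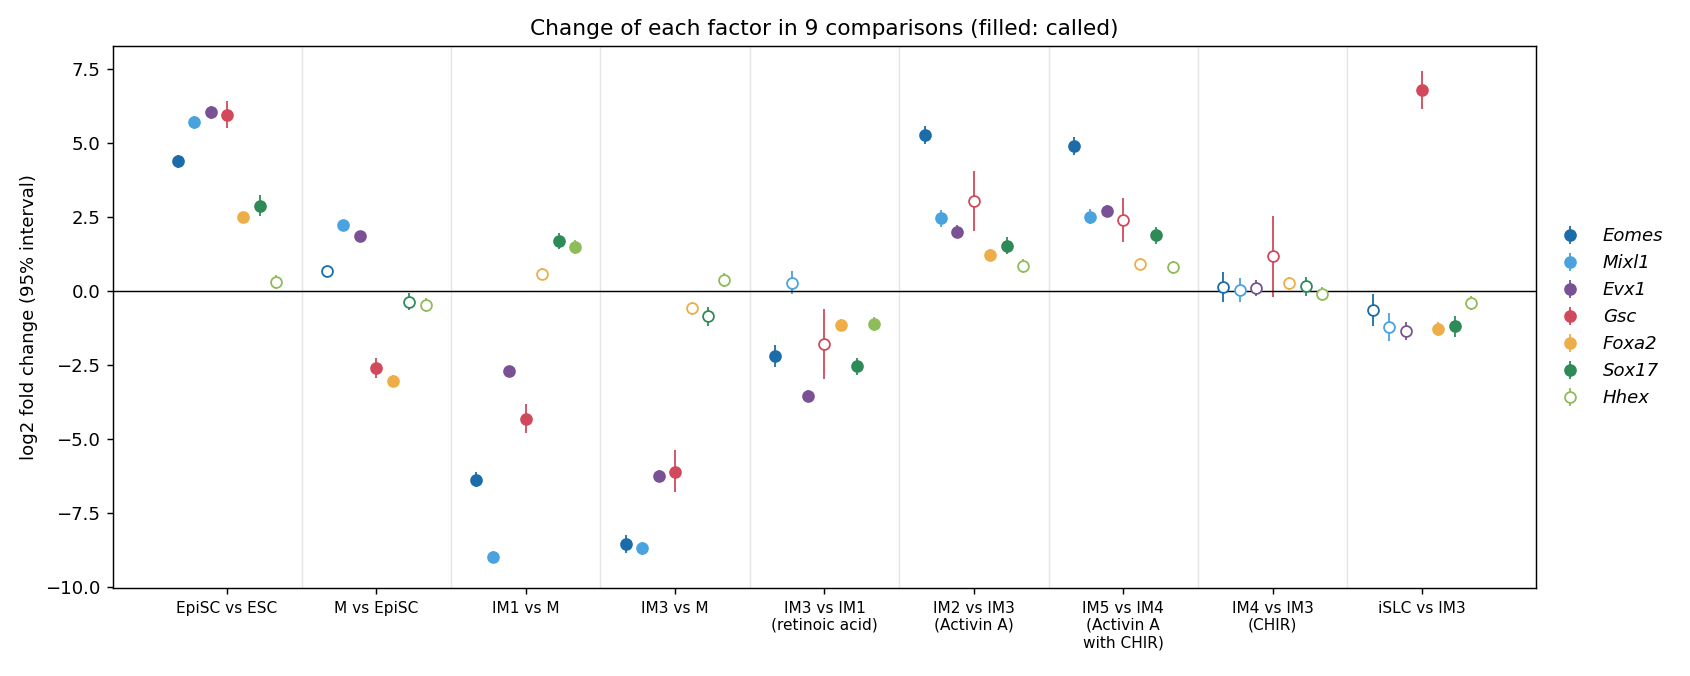
Log2 fold change of the 7 factors with 95% intervals in 9 comparisons; filled points were called. *Eomes* stands highest under Activin A, at 5.26 and 4.91, the 7 lie between -0.09 and 0.27 in IM4 against IM3 except *Gsc* with its wide interval, and *Gsc* alone rises in iSLC.

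In iSLC against IM3, 1 of the 7 rose and 2 fell, where 19.2% of all genes were called. *Gsc* rose to a log2 change of 6.79 (SE 0.32, adjusted p = 1.75e-16); on summed counts, 826 against 5, the ratio was 117 (95% interval 50 to 362, counting error only). *Foxa2* fell 2.43-fold (log2 -1.28, SE 0.12) and *Sox17* 2.29-fold (log2 -1.19, SE 0.17), the latter at -0.94 without iSLC replicate 2 and at -0.97 with an offset for effective length, in both cases not called. *Evx1* at -1.35 and *Mixl1* at -1.22 were under the count minimum, *Eomes* was at -0.64 and *Hhex* at -0.41. *Gsc* thus made up 43.6% of the summed TPM of the 7 in iSLC against 0.381% in IM3.

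Genes of the Nodal and Activin pathway split in iSLC: *Lefty1* (log2 4.12) and *Pmepa1* (2.05) rose, and *Foxh1* (-2.80), *Acvr2b* (-1.35) and *Acvr2a* (-1.31) fell. Of 7 node and notochord genes 1 was called higher and 1 lower. *Chrd*, which with *Gsc* marks the organizer, rose by 1.48, and *Nog* fell (-2.11). *T* was at 0.35 TPM in iSLC and 0.27 TPM in IM3. Endothelial and hemogenic genes fell in 11 of 14 cases, among them *Tie1* (-6.95) and *Tek* (-5.50), and 1 rose, *Emcn* (3.39). Their summed TPM was 44.2 to 46.1 in iSLC, of which *Emcn* had 25 on average. Visceral and primitive endoderm genes fell in 7 of 14 cases and 2 rose, *Sparc* (1.18) and *Rhox5* (1.15). Their summed TPM was 2481 to 2578 in iSLC, of which *Sparc* had 2244 on average, against 1701 to 1866 in IM3. Definitive endoderm genes fell in 6 of 15 cases and none rose.

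The summed TPM of the 7 factors showed how their balance shifted along the course. The sum was 17.8 TPM in ESC, 216 TPM in EpiSC and 435 TPM in M, then 55.3, 55.4 and 58 TPM in IM1, IM2 and IM5 and 15.7, 16.9 and 15.7 TPM in IM3, IM4 and iSLC. *Mixl1* and *Eomes* made up 46.7% and 36.4% of it in M. IM1 and IM2 had nearly equal sums with other genes in them: *Sox17* was 43.6% and *Eomes* 3.75% in IM1, against 22.2% and 32.8% in IM2. *Hhex* was the largest share in IM3, at 44.4%, and in IM4, at 38.2%.

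**Figure D4:**
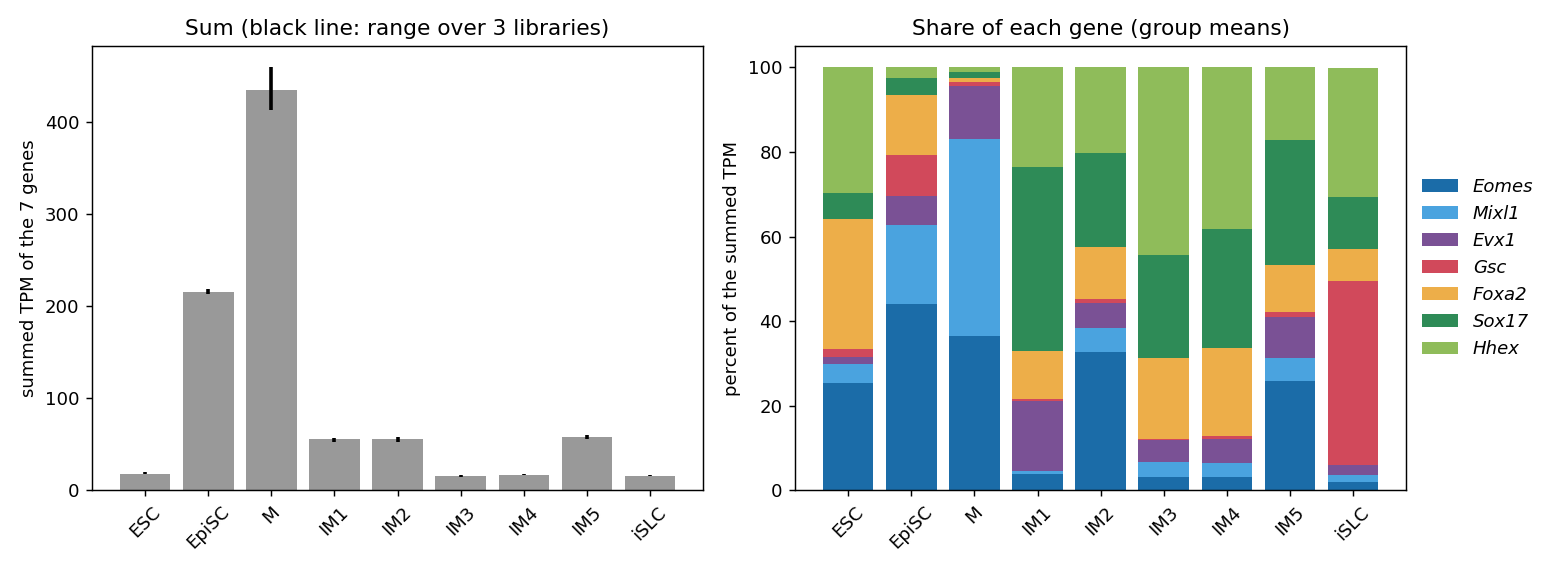
Left, summed TPM of the 7 factors by group, as the mean of 3 libraries with their range; right, the percent of that sum from each gene. The sum peaks in M at 435 TPM, and iSLC stands out by its *Gsc* share of 43.6%.

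Likeness among the 7 was described by Pearson's r over the 9 group means of log2(TPM + 1), in which all pairs share the same libraries. *Eomes* and *Mixl1* were most alike (r = 0.93), followed by *Mixl1* and *Evx1* (0.87), *Eomes* and *Evx1* (0.84) and *Sox17* and *Hhex* (0.80). *Hhex* was least like *Gsc* (-0.53). Among 16913 genes, the 3 nearest to *Eomes* were *Sp5* (0.968), a WNT target of the streak, *Vrtn* (0.941) and *Fst* (0.935), which encodes follistatin, a binder of Activin. For *Mixl1* they were *Ankrd10* (0.970), *Sp5* (0.966) and *Pgr* (0.965), and for *Gsc* *Tlcd1* (0.977), *Snhg3* (0.971) and *4930426D05Rik* (0.955). *Foxa2* was nearest to *Syt5* (0.988), *Lrwd1* (0.974) and *Timm13* (0.966). *Sox17* was nearest to *Exosc6* (0.965), *Cdc37* (0.960) and *2310068J16Rik* (0.956), and *Hhex* to *Arap3* (0.986), *Dhrs9* (0.984) and *Zar1* (0.971). Several of these neighbors moved over a far smaller range than the factor, such as *Ankrd10* at 73.9 to 115 TPM. With 0.1 added to the TPM in place of 1, *Fst*, *Pgr*, *4930426D05Rik*, *Timm13*, *Exosc6* and *Zar1* were no longer among the 3 nearest.

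*Evx1* was nearest to its antisense neighbor *Evx1os* (r = 0.987), then to *Pcbp4* (0.979) and *Isg20* (0.963), of which *Isg20* dropped out with 0.1 added. *Evx1os* stood at 5.1 ± 0.81 TPM in EpiSC, 27 ± 1.12 TPM in M, 3.96 ± 0.442 TPM in IM1, 1.91 ± 0.291 TPM in IM2, 0.553 ± 0.199 TPM in IM3 and 3.51 ± 0.0907 TPM in IM5 (SD, n = 3). It rose by log2 5.12 from ESC to EpiSC and by 2.19 to M, and was called at -2.85 under RA, 1.68 under Activin A and 2.49 under Activin A with CHIR99021, the direction of *Evx1* in each. Its ratio to *Evx1* was 0.29 to 0.395 in EpiSC, 0.476 to 0.523 in M and 0.578 to 0.67 in IM5. The exons of the 2 genes share 73 bases, and how far reads there were split between them was not tested.

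The nearest relatives of the factors were mostly low. *Tbr1* and *Tbx21*, T-box relatives of *Eomes*, and *Gsc2* and *Evx2* stayed under 1 TPM in every group mean. The highest group means of *Foxa1* and *Foxa3* were 2.06 and 3.15 TPM. *Sox7* and *Sox18*, which share the SoxF group and endothelial expression with *Sox17*, were highest in IM1 as *Sox17* was, at 8.39 and 30 TPM. They rose with Activin A in both comparisons (*Sox7* log2 1.13 and 1.14, *Sox18* 1.18 and 1.16).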

How the data were processed

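RNA was taken from triplicate samples, and libraries were made with a TruSeq kit; the strand setting of the counting is not given in the sources used here. Per the labels, reads were trimmed with cutadapt 1.9.1, aligned with STAR 2.5.2a and quantified with RSEM 1.3.0. The deposited files give estimated counts, TPM and effective lengths per Ensembl gene, made by the authors on GRCm38 with Ensembl gene models. Symbols came from GENCODE. Estimated counts were rounded and fitted with edgeR 4.0.16 (R 4.3.3; filterByExpr, TMM, quasi-likelihood test, 1 model over 9 groups). TPM, as deposited, was used for levels, which were not corrected for composition. SE values are the log2 change divided by the square root of F, and intervals use the fit's degrees of freedom. Library totals ran from 35923040 to 84876603. DESeq2 1.42.0, size factors, filters, offsets for GC content and effective length, pairwise fits, a replicate block and leaving out each library were tried as alternatives. Nearest genes needed a highest group mean of at least 1 TPM, and list genes are named by the size of their change among the called. The 7 factors and all lists were chosen with earlier results of these data known. Replicate numbers come from the titles and no source says that they mark a batch. Deviations of same-numbered libraries correlated at 0.178 to 0.206 in IM4 against IM3, the 1 comparison with every pair over 0.1. The mean over all same-numbered pairs was 0.019. Differently numbered pairs had a mean of -0.009 and reached 0.291. Scripts were tested on simulated data.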

Additional observations from a re-analysis of the deposited data

Results flagged for a closer look

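The difference of the CHIR99021 effect on *Evx1* between cultures with and without Activin A had an adjusted p under 0.05 but not under 0.01, and not under every setting. The log2 difference was 0.72 (SE 0.15, 95% interval 0.40 to 1.03, adjusted p = 0.0224 by edgeR), under the 2-fold minimum. *Evx1* was at 3.12, 3.48 and 3.54 TPM in IM2 and 5.39, 5.65 and 5.93 TPM in IM5, against 0.77, 0.79 and 0.88 TPM in IM3 and 0.83, 0.89 and 1.11 TPM in IM4. CHIR99021 moved *Evx1* by log2 0.83 with Activin A and 0.11 without it. The other 6 factors had adjusted p-values of 0.453 or more for this difference. For *Evx1* the adjusted p was 0.11 with the GC offset, 0.278 with the length offset, 0.112 in a fit of the 4 groups alone and 0.0172 to 0.108 with 1 library left out, the highest without IM3 replicate 1.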

How the results depend on the processing

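Of 1384 alternative values of a log2 change, 1350 kept their direction and side of the threshold, 18 gained a call, 7 lost one and 9 changed sign, none of these last called. The 1384 include settings that only loosened a threshold: no count minimum, no fold minimum, or an adjusted p of at most 0.05. Such settings reused the main fit, so they could add a call but could not remove one or change a log2 value. All 63 group means rescaled by TMM factors moved by less than 1 SD. So did all 189 with 1 library left out, but a mean of 3 libraries cannot move by 1 SD in that way. The 189 values are therefore no check on the levels. Without the fold minimum, the count of factors called went from 4 to 7 for IM3 against M and from 0 to 2 for IM5 against IM2, and without the count minimum from 3 to 5 for iSLC against IM3. The sign changes came with 1 library left out: *Mixl1* in IM4 against IM3 ranged from -0.19 to 0.20 and *Foxa2* in IM5 against IM2 from -0.16 to 0.03. For the difference between the Activin A effects, *Mixl1* ranged from -0.10 to 0.28 and *Hhex* from -0.11 to 0.07. *Evx1* there fell to 0.59 with the GC offset (adjusted p = 0.11) and to 0.58 with the length offset (adjusted p = 0.278), and its adjusted p over all alternatives ran from 0.00889 (DESeq2) to 0.278. The replicate block changed no call on the factors (0 called in IM4 against IM3 with it, 22 of all genes against 21).

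Counts over all genes moved with the minimums. Without the count minimum they went from 1682 to 3826 (EpiSC against ESC), 3023 to 5842 (M against EpiSC), 3262 to 5818, 3441 to 5992 and 3108 to 5402 (IM1, IM2 and IM3 against M), 1321 to 2497 (IM3 against IM1), 792 to 1509 (IM2 against IM3), 852 to 1667 (IM5 against IM4), 21 to 36 (IM4 against IM3), 49 to 101 (IM5 against IM2) and 4011 to 7015 (iSLC against IM3). Without the fold minimum they were, in the same order, 7857, 9645, 9940, 10004, 9485, 7198, 5430, 6631, 197, 808 and 10507. Fitting the compared groups alone, or leaving out IM3 replicate 1, gave 12 for IM4 against IM3. The difference between the Activin A effects called 7 genes, 36 without the fold minimum, 13 without the low-count filter, 12 by DESeq2, 3 with the length offset or the 4 groups alone and 2 to 4 without IM2 replicate 1 or 3, IM3 replicate 1 or 2, IM4 replicate 3 or IM5 replicate 1. Depth limits *Gsc* in the IM cultures, where single libraries had 1 to 31 counts.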

Other observations

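Genes of primordial germ cells, a lineage that also arises near the posterior streak, were in part called under RA and Activin A. In IM2 against IM3, where 3.8% of all genes were called, 2 of 6 were called higher, *Prdm1* (log2 1.18) and *Tfap2c* (1.02), and in IM5 against IM4 (4.09% of all genes) 1 of 6, *Prdm1* (1.04). With RA (6.34% of all genes) 3 of 6 were lower, *Prdm1* (-1.59), *Tfap2c* (-1.50) and *Dnd1* (-1.19). Their summed TPM was 191 to 198 in ESC, 36.1 to 40.7 in M, 22.1 to 25.5 in IM1 and 5.25 to 5.99 in iSLC.

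*Snai1*, a repressor of E-cadherin in streak cells, was at 105 TPM in M, 103 TPM in IM1, 40.2 TPM in IM3 and 94.4 TPM in iSLC. It was at 91.4 TPM in IM2, 48.4 TPM in IM4 and 107 TPM in IM5. Its log2 change was 1.23 and 1.21 with Activin A and -1.46 with RA. *Pmepa1* was at 37.4 TPM in IM1, 52.2 in IM2, 12 in IM3, 12.1 in IM4 and 60.1 in IM5, and stood at 52.2 TPM in iSLC, while *Eomes* was at 0.313 TPM there. *Snai1* and *Pmepa1* were singled out after their values were seen.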
